A study of Homo sapiens with 9 samples.

Results

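TBK1 and IKKε are the noncanonical members of the IκB kinase family. The 9 genes described here are TBK1 and IKBKE, which encode these 2 kinases, together with the canonical IKK genes CHUK, IKBKB and IKBKG and the adaptor genes TANK, AZI2, TBKBP1 and OPTN. They were taken by gene name from a table of 58735 genes, each name matched 1 row, and 29048 of the genes in the table had a count in at least 1 library. RNA was sequenced from MIA PaCa-2, an established human pancreatic cancer cell line given as wild type in the labels. Treatments lasted 24-h and were 1 μM compound 1, a TBK1–IKKε inhibitor, 1 μM SCH772984, an ERK inhibitor, or 0.1% dimethyl sulfoxide (DMSO) as the vehicle, with 3 libraries each. The study asked which genes ERK and TBK1–IKKε regulate in common in pancreatic cancer cells, and both kinases inhibited by compound 1 are among the genes described here.

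The canonical IKK complex is built from the kinases IKKα and IKKβ and the regulatory subunit NEMO, and it phosphorylates IκB proteins so that they are degraded and NF-κB enters the nucleus. TBK1 and IKKε are close relatives that phosphorylate IRF3 and IRF7 after sensing of nucleic acids, and they also phosphorylate autophagy receptors. TANK, AZI2 and TBKBP1 are scaffolds that bind TBK1 and IKKε and direct them to different complexes, and OPTN is an autophagy receptor that binds ubiquitin and TBK1. Both inhibitors act on kinase activity, and the values below are RNA levels and not protein or activity.

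The library totals were 9464432 to 10286223 counts with DMSO, 9652741 to 9840769 with compound 1 and 11056977 to 13887859 with SCH772984. Libraries of 1 group differed by more than counting noise in every pair (chi-square per degree of freedom of 2.343 to 10.132), and with compound 1 the largest differences were those of replicate 1 from the other two (10.132 and 7.606, against 2.661 between replicates 2 and 3). ERK output genes checked the labels. SPRY4, a feedback inhibitor of the pathway, had 2303, 2108 and 2064 counts with DMSO and 19, 20 and 41 with SCH772984, ETV4 had 339, 311 and 290 against 10, 4 and 9, and DUSP6, the ERK phosphatase, had 40, 25 and 51 against 0, 1 and 0. With compound 1, 0 of the 9 tested genes of that list differed by edgeR after Benjamini-Hochberg adjustment or by DESeq2, and 3 at an unadjusted p under 0.05, beside 15.0% of all genes tested. KRT8, KRT18, KRT19 and VIM were present in every library. Their summed level was 5920 to 6300 counts-per-million (CPM) with DMSO, 5480 to 6550 with compound 1 and 3150 to 3500 with SCH772984. The 4 genes differed in this, with log2 fold changes with SCH772984 of -1.69 for KRT8, -2.4 for KRT18 and -0.23 for VIM. KRT19 was at 0.11 and did not pass (adjusted p = 0.149, edgeR with Benjamini-Hochberg). The 3 acinar markers PRSS1, CPA1 and AMY2A and the 2 endocrine markers INS and GCG were at 0 in every library, and the 3 leukocyte markers summed to at most 0.106 CPM. Of the 3 fibroblast markers DCN had at most 1 count, and the sum was 462 to 510 CPM with DMSO, 471 to 526 with compound 1 and 989 to 1110 with SCH772984, nearly all of it COL1A2. The 2 endothelial markers summed to 2.89 to 4.45 CPM with DMSO, 6.23 to 6.71 with compound 1 and 0 to 0.27 with SCH772984. Nearly all of this was CDH5, as PECAM1 had 1 count over the 3 DMSO libraries together and 0 with either inhibitor. The part of these shifts in the results below was not tested, and in a bulk sample fewer cells of a kind and less RNA per cell cannot be told apart.

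With the ERK inhibitor, 5 of the 9 genes differed from DMSO. OPTN, IKBKE, TBKBP1 and IKBKB rose and CHUK fell, by edgeR's quasi-likelihood test with Benjamini-Hochberg adjustment over all 13834 genes tested and a threshold of 0.05. This share of 55.6% stood beside 72.8% of all genes tested, of which 37.2% rose and 35.5% fell. The median log2 fold change of the 9 genes was -0.02, and that of all genes tested was 0.03. With compound 1, 1 of the 9 genes, OPTN, differed from DMSO, beside 0.864% of 12849 genes tested (0.490% higher and 0.374% lower). All 9 genes passed the filter on low counts in each comparison. As both inhibitors were compared with the same 3 DMSO libraries, the values of the 2 comparisons are given side by side.

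**Figure D1:**
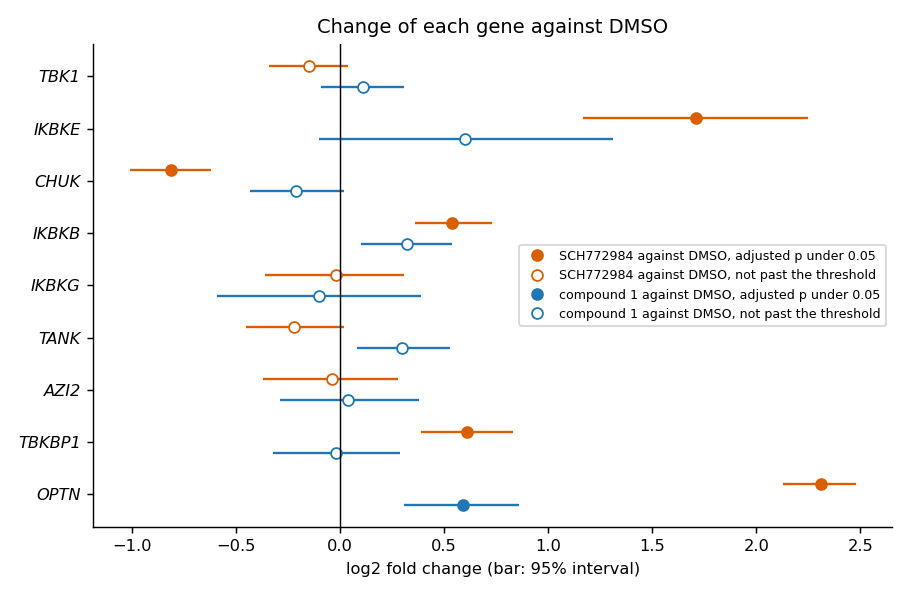
Fitted log2 fold change of each gene against DMSO on the horizontal axis, with its 95% interval as a bar, for SCH772984 (orange) and compound 1 (blue), from 3 libraries a group. Filled points passed an adjusted p of 0.05. OPTN lies farthest to the right with SCH772984, at 2.31, IKBKE has the widest intervals and CHUK is the one filled point to the left of 0.

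IKBKE, at chr1:206470476-206496889 on the plus strand (GRCh38), had the fewest counts of the 9 genes in every library. It had 13, 18 and 16 counts in the DMSO libraries, 19, 34 and 20 with compound 1 and 74, 60 and 81 with SCH772984. All 3 SCH772984 libraries were above every other library, and compound 1 replicate 2 stood above the other compound 1 libraries. The antisense gene C1orf147, which shares 156 exon bases (4.12%) with IKBKE, had 0 to 3 counts. IKBKE rose with SCH772984 by 1.71 on the log2 scale (SE 0.27, 95% interval 1.17 to 2.25), a 3.27-fold difference, with an adjusted p of 2.58e-07 (edgeR, Benjamini-Hochberg). With compound 1 the log2 fold change was 0.60 (SE 0.33, interval -0.1 to 1.31). It was 0.29 without compound 1 replicate 2 and 0.45 to 0.74 without any other single library. All 3 compound 1 libraries were higher than all 3 DMSO libraries, but the difference did not pass the test (adjusted p = 0.414, edgeR with Benjamini-Hochberg).

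The depth behind IKBKE was low. Summed over 3 libraries, IKBKE had 47 counts of 29316742 with DMSO, which is 1.6 CPM of the unscaled library totals, with an exact Poisson 95% interval of 1.18 to 2.13. The sum was 73 with compound 1, or 2.5 CPM (1.96 to 3.14), and 215 with SCH772984, or 5.94 CPM (5.17 to 6.79). The Poisson intervals cover counting error only. In single libraries the interval ran from 6.9 to 22.2 counts around the lowest DMSO count of 13, from 23.5 to 47.5 around the highest compound 1 count of 34 and from 45.8 to 77.2 around the lowest SCH772984 count of 60. Hence the interval of the lowest SCH772984 library lay above those of all 3 DMSO libraries, and the interval of compound 1 replicate 2 overlapped that of DMSO replicate 2, which reached 28.4. Of the genes tested with compound 1, 7.8% had a lower mean level in the DMSO libraries than IKBKE, and 89.7% had a smaller SE. The median SE of all genes in that comparison was 0.12. At this depth a rise of IKBKE of up to 1.31 on the log2 scale with compound 1 was within the interval.

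**Figure D2:**
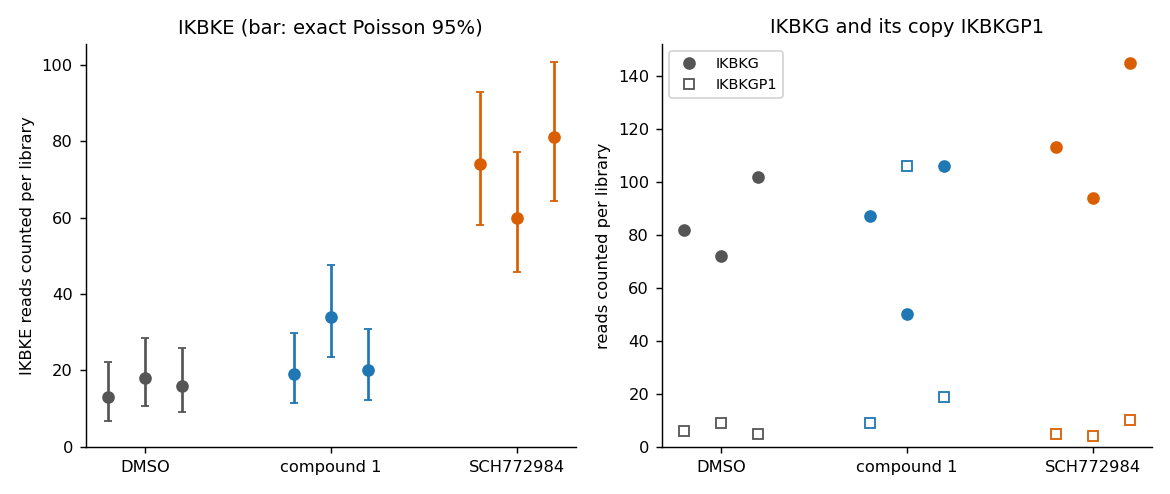
Reads counted per library (vertical axis) in the 3 libraries of each condition. The left panel shows IKBKE with exact Poisson 95% intervals as bars, from 13 counts in a DMSO library to 81 in an SCH772984 library, and the right panel shows IKBKG (filled circles) and its near-identical copy IKBKGP1 (open squares), where compound 1 replicate 2 has 50 counts for IKBKG and 106 for the copy.

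TBK1, at chr12:64451880-64502108 on the plus strand, had 344, 348 and 349 counts with DMSO, 349, 396 and 399 with compound 1 and 428, 417 and 458 with SCH772984. Scaled by TMM factors, these were 35.5, 38.7 and 38.5 CPM with DMSO, 37.2, 41.6 and 41.4 with compound 1 and 35.4, 34.1 and 30.9 with SCH772984. The SCH772984 libraries were just below the DMSO libraries on this scale, and the compound 1 libraries overlapped them. The log2 fold change of TBK1 was -0.15 with SCH772984 (SE 0.09, interval -0.34 to 0.04, adjusted p = 0.147) and 0.11 with compound 1 (SE 0.09, interval -0.09 to 0.31, adjusted p = 0.636), and neither passed edgeR's test with Benjamini-Hochberg adjustment. The fold of TBK1 was thus measured more tightly than that of IKBKE. TBK1 shares 702 exon bases (14.7%) with an antisense gene, AC135279.3, which had at most 3 counts in any library. The sign of the small TBK1 difference with SCH772984 turned to 0.03 when libraries were scaled by their totals alone, a scaling that moved the median of all genes by 0.17.

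The proportion of the 2 kinase messages was set against each other within each library, where scaling cancels. The ratio of IKBKE to TBK1 counts was 0.0465 ± 0.00698 with DMSO (SD, n = 3), 0.0647 ± 0.0194 with compound 1 and 0.166 ± 0.0179 with SCH772984. With SCH772984 all 3 ratios were above the DMSO ratios, a 3.57-fold difference, and the two-sided exact permutation test gave p = 0.1, the smallest that 3 against 3 libraries allow (adjusted p = 0.2 over 8 ratio comparisons). The compound 1 ratios overlapped those of DMSO (exact permutation p = 0.2, adjusted p = 0.267). As CPM per kilobase (FPKM, with the gene lengths of the deposited table, which cover all annotated exons), IKBKE made up 5.36% ± 0.788 of the summed TBK1 and IKBKE level with DMSO, 7.35% ± 2.08 with compound 1 and 17.1% ± 1.57 with SCH772984 (SD, n = 3). The summed level of both genes was 8.34 ± 0.466, 9.09 ± 0.682 and 8.47 ± 0.563 FPKM in the same order, with overlapping ranges. TBK1 was therefore the more abundant message of the pair in all 9 libraries, and a larger share was IKBKE with SCH772984.

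Counts were also divided by those of GUSB, the study's reference gene in qPCR. The TBK1 to GUSB ratio was 0.341 ± 0.0281 with DMSO and 0.292 ± 0.0407 with SCH772984 (SD, n = 3), and the ranges overlapped (exact permutation p = 0.3, adjusted p = 0.3). The log2 difference was -0.23 and became 0.37 when the geometric mean of ACTB, GAPDH, HPRT1, TBP and PPIA replaced GUSB. All 5 of these genes fell with SCH772984, by 0.39 to 0.79 on the log2 scale, whereas GUSB differed by 0.09 and did not pass (adjusted p = 0.259, edgeR with Benjamini-Hochberg). A direction for TBK1 in these counts thus depended on the reference chosen. The IKBKE ratio was higher against either, by 1.6 on the log2 scale with GUSB and by 2.2 with the other 5 genes. The exact permutation p was 0.1 in both cases. In the paper's qPCR against GUSB, TBK1 mRNA of MIA PaCa-2 cells fell significantly with SCH772984, and IKBKE mRNA rose without significance.

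OPTN and IKBKE had the largest rises among the 9 genes with SCH772984, so sequence upstream of a RefSeq start site of each is shown, on GRCh38.p14. The IKBKE stretch, chr1:206470226-206470475 on the plus strand, is the 250 bases before the start. The OPTN stretch, chr10:13099959-13100158 on the plus strand, is the 200 bases of such a window that lie in no annotated exon. OPTN has 2 such windows, both inside the gene as annotated above, and this one belongs to a start downstream of its first exon. Capitals mark matches on either strand to 5 motifs searched by their letters.
IKBKE: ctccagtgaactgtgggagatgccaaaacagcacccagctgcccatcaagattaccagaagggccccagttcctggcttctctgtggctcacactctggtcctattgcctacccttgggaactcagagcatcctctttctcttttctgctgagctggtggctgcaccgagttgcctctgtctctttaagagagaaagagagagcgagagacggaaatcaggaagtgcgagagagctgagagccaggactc
OPTN: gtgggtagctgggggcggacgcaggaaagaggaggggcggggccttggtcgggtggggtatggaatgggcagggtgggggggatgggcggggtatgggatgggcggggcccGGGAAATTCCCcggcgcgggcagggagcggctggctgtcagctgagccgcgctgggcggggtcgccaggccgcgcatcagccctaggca

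The OPTN stretch held the κB letters, GGG and TTCC with 3 bases of any kind between them, on both strands, in matches that overlap in the run of capitals, and the IKBKE stretch held 0 of the 5 motifs. Over the 8 of the 9 genes with a promoter entry (15 windows of 250 bases), the κB letters were in windows of OPTN and TANK, beside 5.67% of 34943 promoter windows of all genes. The ETS letters CCGGAAG were in windows of AZI2, CHUK, IKBKG and TANK (8.48% of all windows), the E-box CACGTG in those of TBK1 and TBKBP1 (6.32%), the AP-1 letters TGANTCA in that of IKBKG (6.59%), and the interferon response letters, GAAA and GAAA with 2 bases of any kind between them, in 0 (3.02%). The IKBKE window had 54.0% GC and 4 CpG dinucleotides and the TBK1 window 66.8% and 27, beside medians of 58.0% and 11 over all windows. Such matches describe the letters and were not tested as binding sites. The 15 windows belong to 8 genes, so some genes had several chances of a match. The percentages are of single windows and are not a like measure for the number of genes with a match.

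The canonical kinase genes moved apart with ERK inhibition, CHUK down and IKBKB up. CHUK, which encodes IKKα and lies at chr10:100188298-100229619 on the minus strand, had 41.1, 42.1 and 39.7 CPM with DMSO, 29.7, 38.2 and 37.1 with compound 1 and 22.3, 23.4 and 23.1 with SCH772984. The SCH772984 libraries lay close together and below all others, and compound 1 replicate 1 was lower than the other compound 1 libraries. CHUK fell by 0.81 on the log2 scale with SCH772984 (SE 0.10, interval -1.01 to -0.62), to 0.569 of its DMSO level, with an adjusted p of 3.02e-10 (edgeR, Benjamini-Hochberg). With compound 1 the log2 fold change was -0.21 (SE 0.11, interval -0.43 to 0.02, adjusted p = 0.368 in the same kind of test). That log2 fold change was between -0.28 and -0.11 when single libraries were left out. All 3 compound 1 libraries were below the DMSO libraries.

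IKBKB, which encodes IKKβ and lies on chromosome 8, had 39.0, 38.1 and 48.8 CPM with DMSO, 51.4, 51.5 and 51.9 with compound 1 and 54.2, 64.9 and 61.5 with SCH772984. The groups followed each other without overlap, and DMSO replicate 3 was closest to the treated libraries. IKBKB rose by 0.54 with SCH772984 (SE 0.09, interval 0.36 to 0.73), a 1.46-fold difference with an adjusted p of 1.73e-06 (edgeR, Benjamini-Hochberg). With compound 1 its log2 fold change was 0.32 (SE 0.10, interval 0.10 to 0.54). The unadjusted p was 0.00785 and the adjusted p 0.159 in edgeR with Benjamini-Hochberg, so the difference did not pass. IKBKB, TANK and OPTN were the 3 genes past the unadjusted threshold, beside 15.0% of all genes tested. IKBKB passed after adjustment without compound 1 replicate 1 (adjusted p = 0.0237), when 9.56% of all genes tested were called.

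Within libraries, the ratio of CHUK to IKBKB counts was 0.991 ± 0.155 with DMSO, 0.678 ± 0.0882 with compound 1 and 0.383 ± 0.0265 with SCH772984 (SD, n = 3). The DMSO libraries thus held about as many reads of the one as of the other. Both inhibitor groups lay below the DMSO range, by 1.36 on the log2 scale with SCH772984 and by 0.54 with compound 1. For both the exact permutation p was 0.1, the smallest this design gives, and the adjusted p was 0.2.

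IKBKG encodes NEMO, the regulatory subunit without kinase activity, and lies at chrX:154541199-154565046 on the plus strand. It had 82, 72 and 102 counts with DMSO, 87, 50 and 106 with compound 1 and 113, 94 and 145 with SCH772984. After scaling the 3 groups overlapped, and the compound 1 group was the most spread, at 5.25 to 11.0 CPM. The log2 fold change was -0.02 with SCH772984 (interval -0.36 to 0.31, adjusted p = 0.9) and -0.10 with compound 1 (interval -0.59 to 0.39, adjusted p = 0.881), both in edgeR with Benjamini-Hochberg.

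IKBKG has a near-identical copy, the pseudogene IKBKGP1 at chrX:154639978-154648275, so its counts are uncertain. The copy had 5 to 9 counts in the DMSO libraries, 4 to 10 with SCH772984 and 9, 106 and 19 with compound 1. The 106 counts were in compound 1 replicate 2, the library in which IKBKG had its lowest count, 50. With the counts of both genes summed, a choice made after seeing the data, the log2 fold change with compound 1 was 0.42 (adjusted p = 0.288) and that of SCH772984 against compound 1 was -0.47 (adjusted p = 0.0224, both edgeR with Benjamini-Hochberg).

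As shares of the summed FPKM of the canonical complex genes, CHUK made up 48.4% ± 4.56 with DMSO, 41.9% ± 5.23 with compound 1 and 29.6% ± 0.725 with SCH772984. IKBKB made up 30.3% ± 2.08, 38.2% ± 2.54 and 47.8% ± 2.97 in the same order, and IKBKG 21.2% ± 2.48, 19.8% ± 6.08 and 22.6% ± 3.01 (SD, n = 3). Hence CHUK was the first of the 3 with DMSO and IKBKB with SCH772984. Their summed level was 12.3 ± 0.871, 12.1 ± 0.895 and 11.2 ± 0.454 FPKM.

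**Figure D3:**
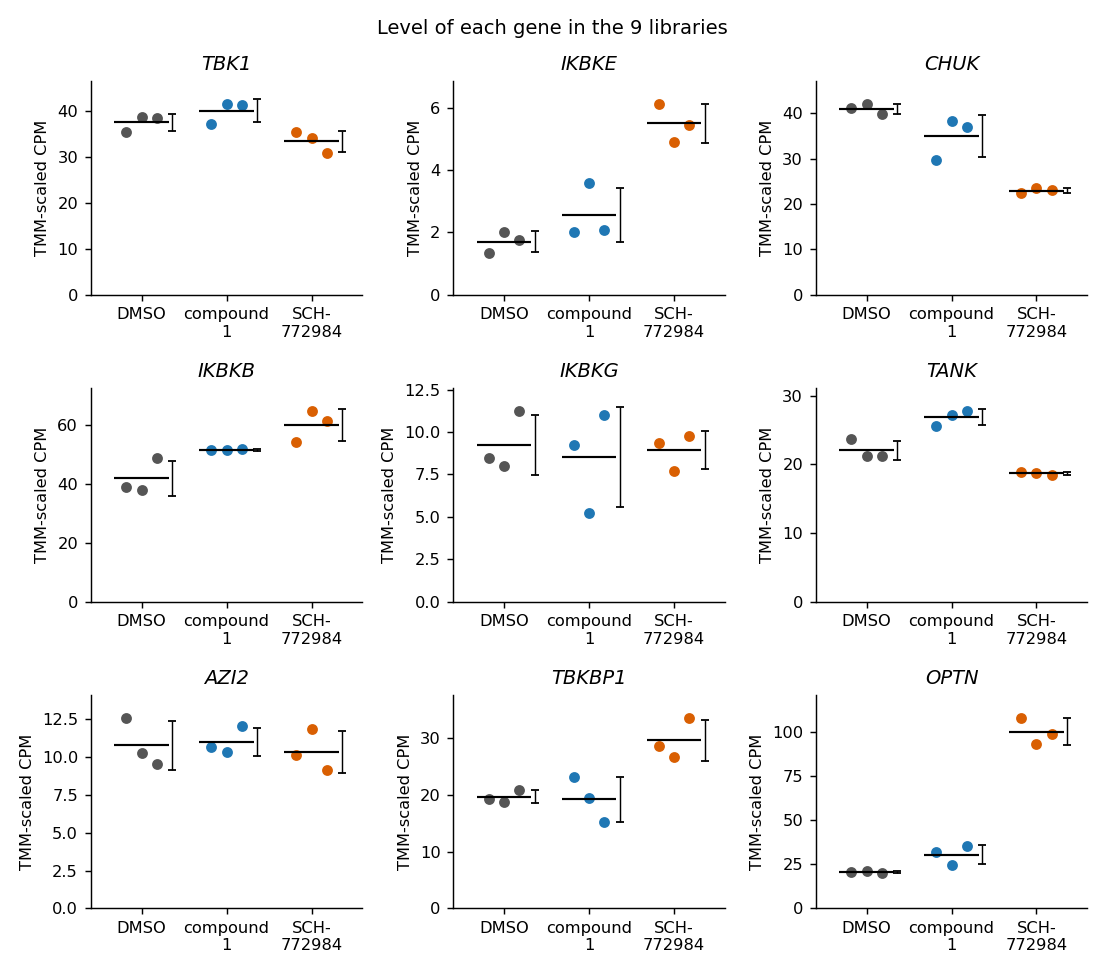
TMM-scaled CPM (vertical axes, each from 0) of the 9 genes in the 3 DMSO, 3 compound 1 and 3 SCH772984 libraries. Points are libraries, horizontal lines are means and the bars beside them are SDs (n = 3). OPTN and IKBKE sit well above DMSO with SCH772984, CHUK below it, and the groups of AZI2 and IKBKG overlap.

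OPTN had the largest difference of the 9 genes and the one difference that passed with both inhibitors. The gene, at chr10:13099449-13138308 on the plus strand, had 198, 190 and 182 counts with DMSO, 300, 233 and 339 with compound 1 and 1312, 1146 and 1474 with SCH772984. The groups did not overlap after scaling, at 20.1 to 21.1 CPM with DMSO, 24.5 to 35.2 with compound 1 and 93.6 to 108.5 with SCH772984. OPTN rose by 2.31 with SCH772984 (SE 0.09, interval 2.13 to 2.48), which is 4.96-fold, with an adjusted p of 7.95e-27 (edgeR, Benjamini-Hochberg). Of all genes tested, 95.5% had a lower log2 fold change.

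With compound 1 OPTN rose by 0.59 (SE 0.13, interval 0.31 to 0.86), which is 1.5-fold. The adjusted p of 0.0464 (edgeR, Benjamini-Hochberg) was close to the threshold, and it was 0.175 to 0.263 without any 1 of the 3 DMSO libraries or without compound 1 replicate 3. The log2 fold change stayed between 0.47 and 0.72 when single libraries were left out. OPTN shares 147 exon bases (2.86%) with CCDC3 on the opposite strand, which had 45 to 135 counts per library.

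TBKBP1, at chr17:47694081-47712050 on the plus strand, had 19.4, 18.8 and 21.0 CPM with DMSO, 23.2, 19.4 and 15.3 with compound 1 and 28.6, 26.7 and 33.7 with SCH772984. The SCH772984 libraries were above all others, and the compound 1 libraries spread to both sides of DMSO. It rose by 0.61 with SCH772984 (SE 0.11, interval 0.39 to 0.83), a 1.53-fold difference with an adjusted p of 3.72e-06 (edgeR, Benjamini-Hochberg). With compound 1 the log2 fold change was -0.02 (interval -0.32 to 0.29, adjusted p = 0.975).

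TANK, at chr2:161136908-161236221 on the plus strand, had 23.6, 21.3 and 21.2 CPM with DMSO, 25.6, 27.2 and 27.8 with compound 1 and 18.9, 18.7 and 18.5 with SCH772984. The compound 1 libraries were all above and the SCH772984 libraries all below the DMSO libraries, yet neither difference passed. The log2 fold change was 0.30 with compound 1 (SE 0.11, interval 0.08 to 0.53, unadjusted p = 0.0123, adjusted p = 0.187) and -0.22 with SCH772984 (SE 0.12, interval -0.45 to 0.02, adjusted p = 0.0885) in edgeR with Benjamini-Hochberg.

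AZI2, at chr3:28315003-28349127 on the minus strand, had 12.6, 10.2 and 9.49 CPM with DMSO, 10.7, 10.3 and 12.0 with compound 1 and 10.1, 11.8 and 9.10 with SCH772984, and all groups overlapped. The log2 fold change was -0.04 with SCH772984 (interval -0.37 to 0.28) and 0.04 with compound 1 (interval -0.29 to 0.38), with adjusted p of 0.816 and 0.926 (edgeR, Benjamini-Hochberg). AZI2 shares 3520 exon bases, 55.4% of its exons, with CMC1 on the opposite strand, which had 110 to 180 counts per library, and as the strand setting of the counting is not given in the sources used here, their reads there cannot be told apart.

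Without regard to the test, 7 of the 9 genes had groups that did not overlap with SCH772984 (4 higher and 3 lower), beside 74.2% of all genes tested (36.8% higher and 37.4% lower). With compound 1 there were 5, with IKBKE, IKBKB, TANK and OPTN higher and CHUK lower, beside 21.4% of all genes tested (9.37% higher and 12.1% lower). The median log2 fold change with compound 1 was 0.11 for the 9 genes and 0 for all genes tested.

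The summed level of the 4 adaptor genes was 14.3 ± 0.418 FPKM with DMSO, 17.0 ± 1.08 with compound 1 and 31.5 ± 1.6 with SCH772984 (SD, n = 3). OPTN accounted for 28.1% ± 1.31, 34.8% ± 4.73 and 62.1% ± 2.06 of it. The share of TANK was 27.7%, 28.4% and 10.7%, that of TBKBP1 32.4%, 26.5% and 22.0%, and that of AZI2 11.9%, 10.2% and 5.21%. With DMSO the adaptor messages were thus spread over TBKBP1, OPTN and TANK, and with SCH772984 most were OPTN.

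Across the 9 genes, levels per kilobase ran in DMSO from TBK1, at 7.89 ± 0.38 FPKM, over CHUK at 5.91 ± 0.169 and TBKBP1 at 4.61 ± 0.262 to IKBKE at 0.449 ± 0.0885 (SD, n = 3). OPTN (4.0 ± 0.105), TANK (3.95 ± 0.249) and IKBKB (3.73 ± 0.529) followed TBKBP1 and could not be ordered, since neighbours among them overlapped. IKBKG, at 2.62 ± 0.499, and AZI2, at 1.7 ± 0.255, stood between these and IKBKE. With SCH772984 OPTN was first, at 19.6 ± 1.46, TBK1 (7.02 ± 0.489) and TBKBP1 (6.93 ± 0.844) overlapped, and IKBKE (1.45 ± 0.161) overlapped AZI2 (1.63 ± 0.219). With compound 1 TBK1 stayed first at 8.41 ± 0.526, the 5 genes from OPTN (5.94 ± 1.07) to TBKBP1 (4.51 ± 0.93) overlapped their neighbours, and IKBKE was last at 0.674 ± 0.232.

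**Figure D4:**
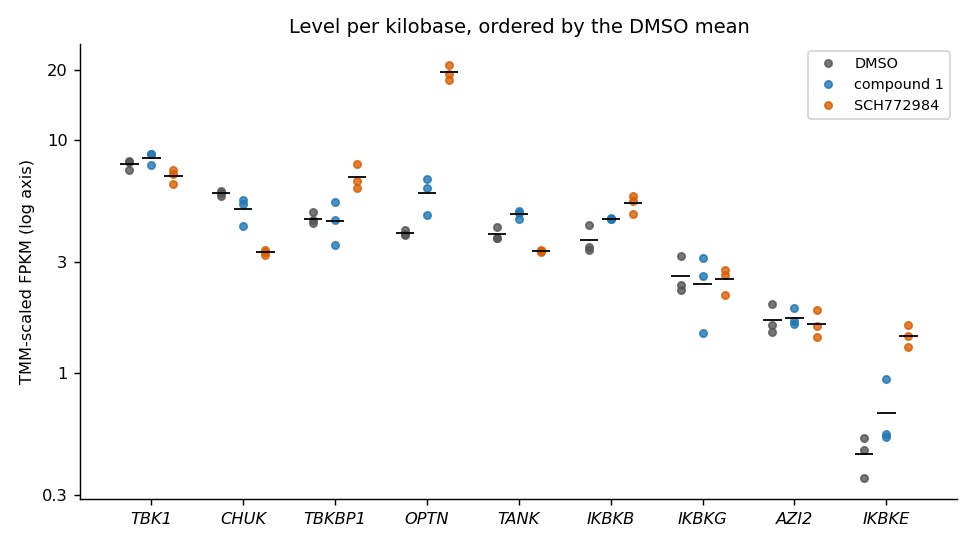
TMM-scaled FPKM on a log axis (vertical) of the 9 genes, ordered by their DMSO mean from TBK1 at 7.89 to IKBKE at 0.449. Points are libraries of DMSO (grey), compound 1 (blue) and SCH772984 (orange), and lines are means of 3. OPTN moves from 4.0, among TANK and IKBKB, to the top with SCH772984, at 19.6, and IKBKE reaches the range of AZI2.

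Compared directly with compound 1, SCH772984 gave 7 of 9 genes past the threshold (edgeR, Benjamini-Hochberg), beside 66.3% of 13863 genes tested (33.7% higher and 32.6% lower). OPTN, IKBKE and TBKBP1 were higher with SCH772984, by 1.73 (SE 0.12, adjusted p = 6.05e-11), 1.11 (SE 0.26, adjusted p = 0.000775) and 0.64 (SE 0.14, adjusted p = 0.000485) on the log2 scale in edgeR with Benjamini-Hochberg. CHUK, at -0.60 (SE 0.12, adjusted p = 0.000176), and TANK, at -0.51 (SE 0.12, adjusted p = 0.000686), were lower in the same test. TBK1 (log2 fold change -0.25, adjusted p = 0.0483) and IKBKB (0.24, adjusted p = 0.0426) were just past the threshold in edgeR with Benjamini-Hochberg. Both failed without compound 1 replicate 2 or 3 or without SCH772984 replicate 2 or 3, with adjusted p of 0.0751 to 0.195 for TBK1 and 0.0808 to 0.226 for IKBKB. TBK1 also failed without SCH772984 replicate 1 (adjusted p = 0.0513), and both failed with DESeq2 (0.0601 and 0.0648). AZI2 and IKBKG did not pass.

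The genes whose pattern over the 9 libraries was most like that of IKBKE were BCKDHB, GSTM2 and ASIC3. The root mean square difference of their centred log2 CPM from that of IKBKE was 0.152, 0.163 and 0.167, beside a median of 0.763 over 11908 protein-coding genes. For TBK1 they were MARK3 (0.0273), SERPINB9 (0.0401) and SPIDR (0.042), beside a median of 0.332. The 9 points of each pattern fall into 3 treatments and share the depth and composition of their libraries, and these likenesses are descriptions.

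Around the 9 genes, 55 genes of IKK and TBK1 signaling were listed by role. With SCH772984, 16 rose and 20 fell of 53 tested (67.9%, beside 72.8% of all genes), with a median log2 fold change of -0.11. TLR3 and IFIH1, 2 of the 16, were tested through the group in which they were high. With compound 1, 2 rose and 0 fell of 51 tested (3.92%, beside 0.864%), with a median of -0.03. The 2 were NFKBIA and NFKB2.

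NFKBIA encodes IκBα, the inhibitor that IKK marks for degradation and a known NF-κB target gene. It had 666, 625 and 619 counts with DMSO and 840, 798 and 876 with compound 1, and rose by 0.37 (SE 0.08, adjusted p = 0.0383, edgeR with Benjamini-Hochberg). NFKB2, which encodes the p100 precursor, had 633, 667 and 604 counts with DMSO and 966, 866 and 866 with compound 1, and rose by 0.48 (SE 0.09, adjusted p = 0.0247, edgeR with Benjamini-Hochberg). In both genes the compound 1 libraries lay above all DMSO libraries. As for OPTN, both calls were lost without any 1 DMSO library or without compound 1 replicate 3, with adjusted p of 0.071 to 0.263, and that of NFKBIA also without compound 1 replicate 2 (0.0516). With SCH772984, NFKB2 rose by 0.35 (adjusted p = 5.23e-05) and NFKBIA, at -0.13, did not pass (adjusted p = 0.158), both in edgeR with Benjamini-Hochberg.

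The listed genes are given by role for SCH772984. Among 13 kinases and ubiquitin ligases that activate IKK complexes, 2 rose and 4 fell (46.2% called, beside 72.8% of all genes tested, 37.2% higher and 35.5% lower). RBCK1, a subunit of the linear ubiquitin ligase, rose by 0.57 (adjusted p = 2.37e-08), and BIRC3, a ubiquitin ligase that restrains the noncanonical pathway, fell by 1.80 (adjusted p = 3.43e-18). BIRC3 had 351, 333 and 330 counts with DMSO, 357, 487 and 505 with compound 1 and 123, 139 and 143 with SCH772984. All 3 compound 1 libraries were above the DMSO libraries after scaling, with a log2 fold change of 0.39 that did not pass (adjusted p = 0.127, edgeR with Benjamini-Hochberg) and passed without compound 1 replicate 1 (adjusted p = 9.27e-05), when 9.56% of all genes tested were called.

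Of 12 tested inhibitors of IKK and TBK1 signaling, 2 rose and 6 fell (66.7%, beside 72.8% of all genes tested). CYLD, a deubiquitinase, rose by 1.02 (adjusted p = 2.95e-15) and TRAIP, a ubiquitin ligase, fell by 1.61 (adjusted p = 2.34e-13, edgeR with Benjamini-Hochberg for both). Of the 9 sensors and adaptors upstream of TBK1, 4 rose and 3 fell (77.8%, beside the same 72.8%). TLR3, the endosomal receptor for double-stranded RNA, had 5, 2 and 4 counts with DMSO, 2, 6 and 10 with compound 1 and 144, 128 and 163 with SCH772984. TLR3 and IFIH1 (4, 7 and 8 counts with DMSO) passed the filter on low counts through the SCH772984 libraries alone and are 2 of these 4, so their calls are no support for the count. RALB, a RAS-family GTPase that engages TBK1 through the exocyst, had 878, 862 and 841 counts with DMSO and 316, 253 and 334 with SCH772984, and fell by 1.99 (SE 0.09, adjusted p = 1.3e-24, edgeR with Benjamini-Hochberg).

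Of 8 tested substrates and effectors, 2 rose and 3 fell (62.5%, beside 72.8% of all genes tested), with REL, an NF-κB subunit, at 1.00 (adjusted p = 5.51e-08) and AKT1 at -1.10 (adjusted p = 2.88e-20, edgeR with Benjamini-Hochberg). Of 7 autophagy receptors and partners 5 rose and 1 fell, with a median of 0.27, beside 37.2% and 35.5% of all genes tested and a median of 0.03. ULK1, the kinase that starts autophagy, rose by 1.26 (adjusted p = 5.52e-17) and RAB7A, a late endosome GTPase, fell by 0.36 (adjusted p = 8.34e-07). All 4 chaperones and docking proteins of IKK complexes differed, beside 72.8% of all genes tested, with ERC1, an IKK-binding scaffold, higher by 0.36 (adjusted p = 1.13e-05) and HSP90AA1, the chaperone, lower, at -1.02 (adjusted p = 3.54e-15, edgeR with Benjamini-Hochberg). With compound 1, 0 genes of the activator, sensor, autophagy and chaperone lists passed edgeR's test with Benjamini-Hochberg adjustment or DESeq2, and 6 of the 31 tested had an unadjusted p under 0.05, beside 15.0% of all genes tested.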

How the data were processed

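RNA of 9 libraries (3 each of DMSO, compound 1 and SCH772984) was sequenced by Novogene. The authors deposited read counts per gene, whole numbers without normalization. The submitters' processing notes name HISAT2 2.0.5, featureCounts 1.5.0-p3 and hg38. The strand setting and the handling of reads with several matches are not given in the sources used here. Coordinates of all 58735 genes matched GENCODE release 29.

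Libraries were grouped by their labels. Each comparison was fitted to its 6 libraries over the whole table with edgeR 4.0.16 in R 4.3.3 (quasi-likelihood test, robust, TMM factors, filterByExpr with minimum count 10 and minimum total 15). A gene was called at a Benjamini-Hochberg adjusted p under 0.05. SE is the log2 fold change divided by the root of F. The paper gives a p under 0.05 without saying whether it was adjusted, and an unadjusted threshold was an alternative. Nothing in the labels says that libraries came from separate cultures, so p-values measure the spread between libraries, which may be technical. Totals were 9464432 to 13887859 counts, and that depth set the counting error. CPM and FPKM were computed from the counts with TMM factors over all 9 libraries. Count ratios had 0.5 added to each count. Same-exon overlap needed at least 1 base. The script was checked on simulated counts.

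The 9 genes and the lists were chosen with earlier results of these data known. Named beyond the 9 genes were, per list, the called gene with the largest rise and the largest fall with SCH772984 (mean CPM of at least 1), every list gene called with compound 1, GUSB, 3 ERK output genes, the 3 genes nearest in pattern to IKBKE and to TBK1, and overlapping genes and copies. Alternatives were RLE factors, library size alone, no filter, DESeq2 1.42.0, a minimum of 10 counts per library, a joint fit of the 9 libraries, an unadjusted p, the replicate number as a block, each library left out in turn, 1 added count in place of 0.5, 5 reference genes in place of GUSB, and, after seeing the data, IKBKG summed with IKBKGP1. One overlap of a named gene is not reported here.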

Additional observations from a re-analysis of the deposited data

Results flagged for a closer look

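IKBKGP1, the pseudogene copy of IKBKG outside the comparisons, had 106 counts in compound 1 replicate 2 and 19 in compound 1 replicate 3. Both were above the highest DMSO count of 9 and above 17.1, the upper exact Poisson 95% limit of that count. The IKBKG counts in the same libraries were 50 and 106. Which of the 2 genes gave these reads was not tested, and counting error was the measure used, without the spread between libraries.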

How the results depend on the processing

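In SCH772984 against DMSO, 5 of the 9 genes were called under every alternative. The share of all genes called ran from 39.2% without the filter to 74.3% at an unadjusted p. With compound 1, the count of 1 became 3 at an unadjusted p (beside 15.0% of all genes) and 0 to 2 with single libraries left out. It was 0 without DMSO replicate 1, 2 or 3 or compound 1 replicate 3, and 2 without compound 1 replicate 1. The 2 wider pathway genes with compound 1 became 9 at an unadjusted p (7 higher, 2 lower) and 0 to 6 with single libraries left out, 0 without the same 4 libraries, 1 without compound 1 replicate 2 and 6 without compound 1 replicate 1. Of all genes tested, 0.0608% to 0.160% were called without 1 of those 4 libraries, 0.390% without compound 1 replicate 2 and 9.56% without compound 1 replicate 1, beside 0.864% with all libraries. In the direct comparison the count was 5 to 7 with single libraries left out, beside 60.0% to 65.4% of all genes tested. It was 8 with IKBKG and IKBKGP1 summed, beside 66.3%. The cause of these shifts was not tested. Same-numbered libraries did not deviate together (correlations of -0.08 to 0.11). With the replicate number as a block, 5, 1 and 5 of the 9 genes were called (SCH772984, compound 1, direct). Of all genes tested, 72.8%, 3.21% and 65.0% were called in the same fits. TBK1 (adjusted p = 0.0661) and IKBKB (0.0579) were lost in the direct comparison (edgeR with Benjamini-Hochberg). Of the wider genes, 36 were called with SCH772984 and 3 with compound 1, where BIRC3 joined (adjusted p = 0.0365 in the same test).

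The TBK1 to GUSB difference with SCH772984 turned from -0.23 to 0.37 with 5 reference genes. Signs near 0 also turned. Under library size alone the log2 fold changes with SCH772984 were 0.03 for TBK1, 0.15 for IKBKG, 0.13 for AZI2 and 0.05 for NFKBIA, those with compound 1 were 0.01 for TBKBP1 and 0.01 for ULK1, and that of AZI2 in the direct comparison was 0.06. With at least 10 counts in every library IKBKG was at 0.05 and AZI2 at 0.04 with SCH772984. With IKBKGP1 summed, IKBKG was at 0.42 with compound 1 and at -0.47 in the direct comparison. Left-out libraries gave IKBKG -0.14 to 0.12 and AZI2 -0.17 to 0.07 with SCH772984, IKBKG -0.33 to 0.15, AZI2 -0.04 to 0.17, TBKBP1 -0.17 to 0.13, RBCK1 -0.05 to 0.13, REL -0.33 to 0.06 and ULK1 -0.06 to 0.02 with compound 1, and IKBKG -0.18 to 0.29 and AZI2 -0.2 to 0.03 in the direct comparison. Counts of 13 to 34 for IKBKE in DMSO and compound 1 libraries limit what can be said of that gene, and 3 libraries a group limit the permutation tests to p = 0.1 (0.25 with the block).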
